A study of Homo sapiens with 8 samples.

Results

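HSC39 cells given TRIM44 siRNA 7 were compared with HSC39 cells given TRIM44 siRNA 9, to describe which functions separate a pair of reagents aimed at the same transcript. The members are the 4 arrays whose titles name either reagent, 2 for each, of 8 arrays in all, read over the 18404 genes that have a probe set with exactly 1 gene symbol. HSC39 is an established line of gastric cancer cells with signet ring morphology, grown in RPMI medium with fetal calf serum, and RNA was measured on whole-transcript arrays. The other 4 arrays hold HSC39 cells labelled as given AllStars negative siRNA, and the labels give 100 nM siRNA (written nm) and 48 h for every sample. The treatment text names TRIM44 siRNA also for the negative samples, and the series text calls the controls untreated, so the sample labels were followed. The series text speaks of 4 biological replicates per condition, pooling the reagents, and no label says whether the samples came from separate cultures. The p-values therefore reflect only how far these samples differed from each other, and part of that spread may be technical.

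Small interfering RNA guides the Argonaute proteins to transcripts that pair with it along its length, and these are cut. The same guide can also lower other transcripts that pair only with its seed, so different siRNAs against 1 gene share the intended target and can differ elsewhere. TRIM44 is an atypical tripartite motif protein, without the RING domain that gives most relatives their ubiquitin ligase activity and with a zinc finger of the kind found in ubiquitin-specific proteases. The guide sequences of siRNA 7 and siRNA 9 were not analysed here.

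TRIM44 itself was lower with both reagents than with negative siRNA. On the negative arrays its log2 level was 11.91, 12.02, 11.91 and 11.77. It was 10.85 and 11.27 with siRNA 7, and 11.10 and 11.14 with siRNA 9. All TRIM44 siRNA arrays lay below all negative arrays, and the siRNA 9 values lay between the siRNA 7 values. The difference of siRNA 7 minus siRNA 9 was -0.06 with a standard error (SE) of 0.14, a 95% interval of -0.36 to 0.24 and a limma adjusted p of 0.903. It turned to 0.15 (limma adjusted p = 0.686) without siRNA 7 array 1. Against negative siRNA the level fell by 0.84 with siRNA 7 (limma adjusted p = 0.0405) and fell by 0.78 with siRNA 9 (limma adjusted p = 0.0155). The siRNA 7 call did not pass under 9 of 15 alternatives: median centring, all probe sets tested, the replicate block, and without negative array 1, 3 or 4, siRNA 7 array 1 or either siRNA 9 array. Its limma adjusted p ran from 0.00292 to 0.262 over them. The siRNA 9 call did not pass under 3, all probe sets tested and without either siRNA 9 array, with 0.000496 to 0.24 over the 15.

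Away from TRIM44 the reagents differed in 415 of 18404 genes (2.25%) at a limma adjusted p under 0.05, 153 higher with siRNA 7 (0.831%) and 262 higher with siRNA 9 (1.42%). In probe sets these were 428 of 19158 (2.23%), of which 157 (0.82%) were higher with siRNA 7 and 271 (1.41%) with siRNA 9. The differences of called genes had a median size of 0.63 in either direction and reached 2.32 and 1.66. Called genes higher with siRNA 7 had a median log2 level of 9.45, those higher with siRNA 9 of 8.46, and all genes of 7.58. When each array was centred on its own median, 181 probe sets were higher with siRNA 7 and 170 with siRNA 9, without a surplus on the siRNA 9 side. Quantile normalization kept the surplus, with 192 higher with siRNA 7 and 352 with siRNA 9. The count rests on both siRNA 9 arrays: leaving out either one left 0 probe sets past the threshold in limma, with 1931 and 2003 at an unadjusted p under 0.05 against 3015 with all arrays. It was 194 and 47 without siRNA 7 array 1 and 2, 1050 and 219 without negative array 2 and 3, and 8 when probe sets with no symbol or several were tested too. Of 83 genes named below as past the threshold, 0 stayed past it without either siRNA 9 array, and 34 and 15 stayed without siRNA 7 array 1 and 2. None turned its direction. An exact permutation test of 2 against 2 arrays cannot go below p = 0.333, so the calls come from the model fitted across all genes, which takes its spread from all 3 groups.

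**Figure D1:**
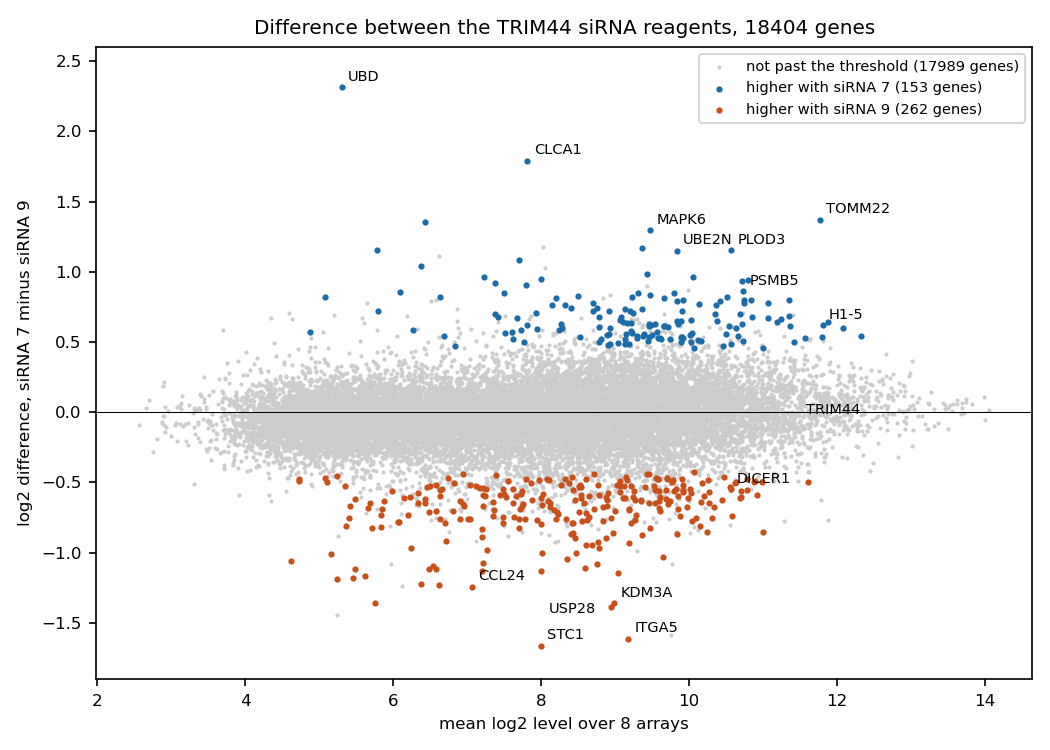
Each point is 1 of 18404 genes, with its mean log2 level over the 8 arrays on the horizontal axis and the log2 difference of siRNA 7 minus siRNA 9 on the vertical axis. The 153 blue genes passed the threshold higher with siRNA 7 and the 262 orange genes higher with siRNA 9, while TRIM44 lies at -0.06.

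Set against the negative arrays, genes higher with siRNA 7 were mostly low with siRNA 9, and genes higher with siRNA 9 were displaced by both reagents. Of the 153 genes higher with siRNA 7, both siRNA 9 arrays lay below all 4 negative arrays for 145 (94.8%), and both siRNA 7 arrays lay above them for 60 (39.2%). Their median difference from negative siRNA was 0.15 with siRNA 7 and -0.48 with siRNA 9. Of the 262 genes higher with siRNA 9, both siRNA 9 arrays were higher than every negative array for 208 (79.4%), and both siRNA 7 arrays lay below them for 188 (71.8%). Their median differences from negative siRNA were -0.32 with siRNA 7 and 0.34 with siRNA 9. Over all genes, both siRNA 7 arrays exceeded every negative array in 6.38% and fell short of every one in 8.03%, and both siRNA 9 arrays did so in 13.6% and 9.22%. The genes were chosen on the difference between the reagents and the comparisons share arrays, so these counts describe the genes and test nothing. Against negative siRNA, 12 genes (0.0652%) passed for siRNA 7 and 171 (0.929%) for siRNA 9, or 13 (0.0679%) and 177 (0.924%) probe sets. The 13 became 1 without negative array 3 or 4 or either siRNA 9 array, 4 without negative array 1 or siRNA 7 array 2, 35 without negative array 2 and 32 without siRNA 7 array 1. The 177 became 0 without either siRNA 9 array, 74 and 47 without negative array 1 and 3, and 1067 without negative array 2.

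Negative array 2 stood nearest to the siRNA 9 arrays in the genes higher with siRNA 9. Over those 262 genes its level was a median of 0.15 above the mean of the other negative arrays, against -0.05 over all genes and -0.01 over the 153 genes higher with siRNA 7. The other negative arrays differed from the rest by -0.09 to -0.03 over the 262 genes. The part of this array's displacement in the results was not tested beyond leaving it out, which raised the count of called probe sets to 1050. Arrays of the same group correlated at 0.991 to 0.997 across probe sets, with 0.995 for the siRNA 7 pair and 0.997 for the siRNA 9 pair. Arrays of different groups lay within the same range. The reagents correlated with each other at 0.991 to 0.992, and with the negative arrays at 0.992 to 0.996. The 17 epithelial markers checked, EPCAM and KRT8 among them, all lay above the median of all genes, with an array mean of 11.65 to 11.85. Of the fibroblast markers 2 of 12 did (LUM the highest at 9.77), of the leukocyte markers 2 of 13 (LYZ the highest at 11.53) and of the endothelial markers 0 of 10. None of these markers passed the threshold between the reagents.

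Calls in the ubiquitin and proteasome system went both ways. UBE2N, the conjugating enzyme that builds lysine-63 ubiquitin chains, had log2 levels of 9.99, 10.13, 9.91 and 10.15 on the negative arrays, 10.09 and 10.31 with siRNA 7, and 9.08 and 9.01 with siRNA 9. Only the siRNA 9 arrays stood apart, lower than every other array. Its difference was 1.15 (SE 0.12, limma adjusted p = 0.00264), a level 2.22-fold higher with siRNA 7. UBE2NL, a near-identical copy of UBE2N whose probes cannot be told from it with certainty, differed by 1.09. Among the 25 conjugating enzymes measured, UBE2S, which extends chains for the anaphase-promoting complex, and UBE2J1, an enzyme of the endoplasmic reticulum, also passed, at 0.62 and 0.56. A second UBE2S probe set gave 0.48 and did not pass (limma adjusted p = 0.066). None of the 25 enzymes passed in the other direction. The arrays did not overlap in 13 enzymes higher with siRNA 7 and 4 higher with siRNA 9, and the median was 0.16 (-0.03 over all genes). That median was 0.05 without siRNA 7 array 2 and 0.06 without siRNA 9 array 2. Over all genes the arrays did not overlap in 19.8% higher with siRNA 7 and 28.9% higher with siRNA 9, which is the background for every such count below. For counts of calls the background is 2.25% of all genes. Neither background was matched for level. In the 17 epithelial markers, all above the median level of all genes, 35.3% did not overlap higher with siRNA 7 and 11.8% higher with siRNA 9.

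PSMB5, the proteasome subunit with chymotrypsin-like activity, read 10.77, 10.89, 10.97 and 11.03 on the negative arrays, 10.98 and 10.998 with siRNA 7, and 10.11 and 10.13 with siRNA 9. Here too the siRNA 9 pair lay below every other array, and the difference was 0.86 (SE 0.11, limma adjusted p = 0.00618). It was the only 1 of 28 proteasome genes to pass. The arrays did not overlap in 8 of the 28 higher with siRNA 7 and in 1 higher with siRNA 9. The list median was 0.06, and was 0.12 and 0.01 without siRNA 7 array 1 and 2.

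Of 45 deubiquitinases 1 passed higher with siRNA 7 and 2 higher with siRNA 9. USP28, a deubiquitinase known for stabilising MYC, had log2 levels of 8.84, 9.32, 8.96 and 9.02 on the negative arrays, 8.01 and 8.32 with siRNA 7, and 9.59 and 9.51 with siRNA 9. Both reagents lay outside the negative range, on opposite sides. The difference was -1.39 (SE 0.15, limma adjusted p = 0.0033), a level 2.61-fold higher with siRNA 9. OTUD6B was likewise higher with siRNA 9, at -0.70, and USP46, a partner of WD-repeat cofactors, higher with siRNA 7, at 0.60. Over the 45 deubiquitinases the median was 0.00, with 15 against 16 genes without overlap. Of the 46 cullin ligase and neddylation genes KLHL11, a substrate adaptor, passed at 0.53. Of 37 measured members of the TRIM family, TRIM29 alone passed, higher with siRNA 9 at -0.67. The list median of -0.07 was -0.11 without siRNA 7 array 1 or siRNA 9 array 2, -0.01 without siRNA 7 array 2 and -0.02 without siRNA 9 array 1.

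Of 27 mitochondrial import genes 1 passed (3.7%), higher with siRNA 7, and of 46 mitochondrial ribosome and 34 respiratory chain genes 0 passed. Of all genes 2.25% passed. TOMM22, the central receptor of the outer membrane import pore, had log2 levels of 11.93, 11.91, 12.06 and 12.05 on the negative arrays, 12.09 and 12.40 with siRNA 7, and 10.83 and 10.92 with siRNA 9. The siRNA 9 arrays stood far below every other array. The difference was 1.37 (SE 0.12, limma adjusted p = 0.00248), a level 2.59-fold higher with siRNA 7, and a second probe set of the gene gave 1.17 (limma adjusted p = 0.00264). Against negative siRNA the fall with siRNA 9 passed, at -1.11 (limma adjusted p = 0.00245), but not without siRNA 9 array 1 or 2 (limma adjusted p = 0.117 and 0.0655; from 4.165e-06 to 0.117 over 15 alternatives). No other of the 27 import genes passed, but the arrays did not overlap in 16 higher with siRNA 7 (59.3%) against 2 higher with siRNA 9. The median was 0.12, and 0.05 without siRNA 7 array 2. The members next nearest to the threshold were TIMM8A, a small chaperone of the intermembrane space, at -0.57 (limma adjusted p = 0.0519), GFER, its oxidase, at 0.34, and TIMM13 at 0.32.

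None of the 46 mitochondrial ribosome genes passed. The arrays did not overlap in 21 higher with siRNA 7 (45.7%) and 5 higher with siRNA 9 (10.9%), and the median of 0.11 kept its sign under both other scalings and without any 1 of the 4 TRIM44 siRNA arrays, but was 0.04 without siRNA 7 array 2. MRPS16 was nearest, at 0.38 (limma adjusted p = 0.0733), followed by MRPS23 at 0.36, MRPL12 at 0.34 and MRPS27 at 0.32. The respiratory chain genes had a median of 0.04 whose sign turned under quantile normalization, with 12 genes (35.3%) without overlap higher with siRNA 7 and 9 (26.5%) higher with siRNA 9. COQ10B, a mitochondrial protein that binds coenzyme Q, belongs to none of the lists. It read 9.43, 9.56, 9.42 and 9.32 on the negative arrays, 9.98 and 9.79 with siRNA 7, and 8.72 and 8.71 with siRNA 9. The 3 groups did not overlap, and the difference was 1.17 (SE 0.11, limma adjusted p = 0.00264).

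Of 42 ribosome biogenesis genes 1 passed (2.38%, against 2.25% of all genes), higher with siRNA 7. Of the 42, 29 (69%) were higher on both siRNA 7 arrays than on both siRNA 9 arrays and 2 the other way, with a median of 0.17. On each array the mean of these genes, each centred over the 8 arrays, was -0.10, -0.02, -0.01 and -0.02 for negative siRNA, 0.06 and 0.19 for siRNA 7, and -0.05 and -0.06 for siRNA 9. The siRNA 7 arrays were therefore the high ones and the siRNA 9 arrays lay within the negative range. WDR43, a subunit of the small-subunit processome, passed at 0.47 (SE 0.11, limma adjusted p = 0.0457). NAT10, which acetylates ribosomal RNA, differed by 0.37, RRP12 by 0.41 and RRP9 by 0.49, and none of these passed. Ribosomal proteins, 39 measured and 0 called, had 19 genes without overlap higher with siRNA 7 against 4, with a median of 0.06 (0.03 without siRNA 7 array 2).

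Of 19 aminoacyl-tRNA synthetases and 30 genes of the amino acid response 0 passed, against 2.25% of all genes. Aminoacyl-tRNA synthetases, which load amino acids on transfer RNA, had 9 of 19 genes without overlap higher with siRNA 7 and 1 higher with siRNA 9. Their median was 0.16, and 0.09 without siRNA 9 array 2. NARS1 differed by 0.37, MARS1 by 0.36, YARS1 by 0.31 and FARSB by 0.22. The 30 genes of the amino acid response, which ATF4 drives when amino acids or folded protein run short, had a median of 0.17 and 0 calls. Their array means were 0.26, -0.08, 0.20 and -0.10 on the negative arrays, 0.25 and -0.24 with siRNA 7, and -0.10 and -0.20 with siRNA 9. The siRNA 7 arrays lay near opposite ends of the range, farther apart than any of the negative arrays, and the median turned to -0.07 without siRNA 7 array 1 and reached 0.31 without array 2. ATF4 differed by 0.37 in 1 probe set and by -0.19 in another, SLC7A1, an arginine transporter, by 0.57, DDIT4, an inhibitor of mTOR complex 1, by 0.55, and VLDLR by -0.81, none past the threshold. RRAGC, a GTPase that brings mTOR complex 1 to the lysosome, passed higher with siRNA 9, at -0.52 (limma adjusted p = 0.0476).

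**Figure D2:**
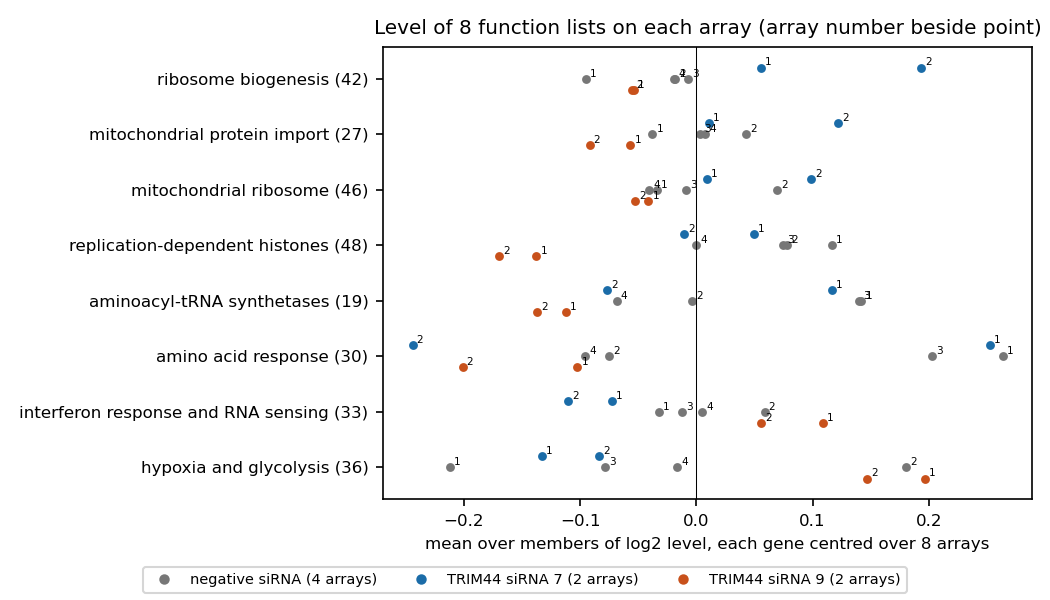
For 8 function lists, each point is 1 array's mean over the measured members (number in brackets) of log2 level, each gene centred over the 8 arrays; colours give the siRNA and the small digit the array number. Ribosome biogenesis is highest on the siRNA 7 arrays (0.06 and 0.19), the histones lowest on the siRNA 9 arrays (-0.14 and -0.17), and hypoxia and glycolysis high on both siRNA 9 arrays and on negative array 2 (0.15 to 0.20).

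Of 36 hypoxia and glycolysis genes 3 passed, all higher with siRNA 9. KDM3A, a histone demethylase and standard target of hypoxia-inducible factor, had log2 levels of 8.43, 9.55, 8.67 and 8.67 on the negative arrays, 8.28 and 8.66 with siRNA 7, and 9.89 and 9.77 with siRNA 9. The siRNA 9 arrays were highest, and negative array 2 lay close beneath them while the other negative arrays lay near siRNA 7. The difference was -1.36 (SE 0.28, limma adjusted p = 0.0314), a level 2.57-fold higher with siRNA 9. EGLN1, the prolyl hydroxylase that marks the factor for degradation and is itself its target, differed by -0.75 (SE 0.17, limma adjusted p = 0.046). INSIG2, which retains the sterol sensor in the endoplasmic reticulum, differed by -1.08 (SE 0.25, limma adjusted p = 0.0475). The other 33 did not pass. The arrays did not overlap in 23 higher with siRNA 9 (63.9%) and 7 higher with siRNA 7, and the median was -0.21.

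The array means of the hypoxia and glycolysis genes were -0.21, 0.18, -0.08 and -0.02 for negative siRNA, -0.13 and -0.08 for siRNA 7, and 0.20 and 0.15 for siRNA 9. Negative array 2 thus matched the siRNA 9 arrays, and the siRNA 7 arrays lay within the range of the other negative arrays. P4HA2, a collagen prolyl hydroxylase, was next at -0.63 (limma adjusted p = 0.0728). STC1, a secreted glycoprotein that is in no list here, had the largest difference of the genes higher with siRNA 9. It read 7.10, 8.46, 7.64 and 7.78 on the negative arrays, 7.13 and 7.70 with siRNA 7, and 9.06 and 9.09 with siRNA 9. Its difference was -1.66 (SE 0.32, limma adjusted p = 0.0252), 3.16-fold higher with siRNA 9.

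The promoters of the called hypoxia genes are shown because hypoxia-inducible factor binds the core letters ACGTG or GCGTG. Each is the 250 bases before a start listed in RefSeq (GRCh38.p14), 5′ to 3′ on the gene's strand, with any ACGTG or GCGTG on either strand in capitals. KDM3A is chr2:86441121-86441370 on the plus strand (the first of 2 starts listed, inside the RefSeq gene span, which begins at 86437044), EGLN1 chr1:231422288-231422537 on the minus strand and INSIG2 chr2:118088221-118088470 on the plus strand (the first of 2 starts listed).
KDM3A: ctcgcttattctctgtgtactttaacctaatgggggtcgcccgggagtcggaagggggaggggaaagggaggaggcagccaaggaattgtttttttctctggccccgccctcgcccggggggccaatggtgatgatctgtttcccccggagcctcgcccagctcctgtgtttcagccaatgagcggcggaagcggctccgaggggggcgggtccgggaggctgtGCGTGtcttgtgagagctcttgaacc
EGLN1: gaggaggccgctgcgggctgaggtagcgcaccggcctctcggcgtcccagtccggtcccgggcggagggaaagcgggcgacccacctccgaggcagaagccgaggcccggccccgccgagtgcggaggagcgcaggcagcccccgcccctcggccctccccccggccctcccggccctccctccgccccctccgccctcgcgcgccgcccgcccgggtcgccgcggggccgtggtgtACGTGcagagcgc
INSIG2: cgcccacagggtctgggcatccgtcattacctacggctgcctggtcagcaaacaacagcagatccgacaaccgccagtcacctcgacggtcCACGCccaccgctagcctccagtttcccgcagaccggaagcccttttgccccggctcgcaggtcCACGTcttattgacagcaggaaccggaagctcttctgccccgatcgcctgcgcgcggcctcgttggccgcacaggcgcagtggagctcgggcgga
KDM3A holds 1 GCGTG, EGLN1 holds 1 ACGTG, and INSIG2 holds 1 of each, both on the strand opposite to the gene. At least 1 of these motifs was present in 23 of 33 list members with a promoter in the table (69.7%) and in 49.7% of 20100 promoters of this length. The list share takes the first start of each gene, while the 20100 hold every start listed and were not matched for base composition. A match describes these letters and does not show binding.

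Of 48 replication-dependent histone genes 2 passed, both higher with siRNA 7. These genes make the bulk of chromatin protein in S phase, and their transcripts end in a stem-loop in place of a poly(A) tail. H1-5, a linker histone, had log2 levels of 12.09, 11.96, 12.002 and 11.80 on the negative arrays, 11.98 and 11.95 with siRNA 7, and 11.36 and 11.32 with siRNA 9. H2AC4, a core histone, read 9.56, 9.55, 9.60 and 9.36, then 9.45 and 9.24 with siRNA 7, and 8.84 and 8.76 with siRNA 9. In both genes the siRNA 9 arrays lay below all others. H1-5 differed by 0.62 (SE 0.11, limma adjusted p = 0.0198) and H2AC4 by 0.54 (SE 0.12, limma adjusted p = 0.0387). Of the 48 genes, 30 (62.5%) did not overlap higher with siRNA 7 against 3 higher with siRNA 9, and the median was 0.18. H4C4 at 0.44 and H2BC6 at 0.37 came next without passing. The medians against negative siRNA were -0.04 with siRNA 7 and -0.20 with siRNA 9. Histone genes of 1 type are near-identical, so a probe set can carry signal of its neighbours.

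The promoters of both called histone genes are shown with CCAAT on either strand and TATAAA on either strand in capitals, elements known from histone promoters. H1-5 is chr6:27867589-27867838 and H2AC4 chr6:26033619-26033868, both on the minus strand of GRCh38.p14.
H1-5: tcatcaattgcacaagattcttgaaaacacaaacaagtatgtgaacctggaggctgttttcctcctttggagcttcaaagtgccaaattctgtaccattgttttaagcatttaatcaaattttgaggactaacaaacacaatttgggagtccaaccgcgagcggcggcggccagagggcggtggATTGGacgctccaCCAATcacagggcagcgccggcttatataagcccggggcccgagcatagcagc
H2AC4: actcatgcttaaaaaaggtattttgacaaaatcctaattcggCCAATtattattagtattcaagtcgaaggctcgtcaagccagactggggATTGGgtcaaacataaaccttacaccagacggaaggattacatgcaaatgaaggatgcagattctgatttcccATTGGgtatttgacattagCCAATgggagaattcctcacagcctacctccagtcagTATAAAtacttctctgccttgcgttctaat
H1-5 holds 2 CCAAT motifs and no exact TATAAA, and H2AC4 holds 4 CCAAT motifs and 1 TATAAA element. Only these exact letters were searched, so variants such as the tatataag near the end of the H1-5 sequence were not counted. Of 43 histone promoters in the table, CCAAT was present in 38 (88.4%) and in 32.6% of all 20100, and TATAAA in 29 (67.4%) and in 8.58%. As above, the list takes 1 start per gene and the background every start, and a match does not show binding.

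Of 45 mitosis genes 3 passed, all higher with siRNA 7. PLK1, the mitotic kinase, passed at 0.64 (limma adjusted p = 0.0235), KIF20A, a kinesin of cytokinesis, at 0.72 (0.0182 by the same test) and KIF2C, which takes down microtubules at the kinetochore, at 0.50 (0.0394). PLK1 read 11.97, 11.70, 11.91 and 12.05 on the negative arrays, 12.17 and 12.19 with siRNA 7, and 11.57 and 11.51 with siRNA 9, so the 3 groups did not overlap. Over the 45 mitosis genes, 20 did not overlap higher with siRNA 7 (44.4%) and 9 higher with siRNA 9 (20%), with a median of 0.06 (0.03 without siRNA 7 array 2 or siRNA 9 array 1). In bulk RNA a smaller share of dividing cells and less RNA per cell cannot be told apart. Of 49 DNA replication genes GINS1, part of the replicative helicase, passed at 0.77 and 0 passed the other way. The arrays did not overlap in 19 higher with siRNA 9 against 11, and the median was -0.07 (-0.02 without siRNA 7 array 1, -0.04 without siRNA 9 array 1). MAPK6, an atypical MAP kinase in no list, read 9.47, 9.95, 9.59 and 9.38, then 9.93 and 10.05 with siRNA 7, and 8.62 and 8.78 with siRNA 9. Its difference was 1.29 (SE 0.16, limma adjusted p = 0.00595).

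Of 16 genes of MHC class I antigen processing 2 passed each way. UBD, the ubiquitin-like modifier FAT10 that cytokines induce, had the largest difference of all genes. It read 5.37, 6.03, 4.996 and 6.09 on the negative arrays, 6.26 and 6.01 with siRNA 7, and 3.84 and 3.80 with siRNA 9. Its difference was 2.32 (SE 0.29, limma adjusted p = 0.00595), 4.98-fold higher with siRNA 7. A second UBD probe set gave -0.17 and did not pass, so the probe sets disagree. TAPBP, the tapasin that bridges TAP and MHC class I, passed at 0.80 (SE 0.11, limma adjusted p = 0.00849) in its brightest probe set. Others of TAPBP gave 0.36 and -0.52 without passing. TAP1, the peptide transporter, read 9.28, 9.39, 9.32 and 9.49 on the negative arrays, 8.97 and 8.61 with siRNA 7, and 9.62 and 9.48 with siRNA 9. It was thus low with siRNA 7, with a difference of -0.76 (SE 0.13, limma adjusted p = 0.0175). ERAP1, which trims peptides in the endoplasmic reticulum, passed the same way at -0.53. MR1, which presents vitamin metabolites to T cells, read 6.45 and 5.48 with siRNA 7 and 7.24 and 7.14 with siRNA 9, a difference of -1.23 (limma adjusted p = 0.0249).

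Of 33 interferon response genes 1 passed (3.03%, against 2.25% of all genes), higher with siRNA 9. TLR3, the endosomal sensor of double-stranded RNA, had log2 levels of 5.16, 5.84, 5.31 and 5.48 on the negative arrays, 5.14 and 4.59 with siRNA 7, and 6.25 and 5.84 with siRNA 9. Its lower siRNA 9 value equalled negative array 2 to 2 decimals, and both siRNA 7 arrays lay below all negative arrays. The difference was -1.18 (SE 0.23, limma adjusted p = 0.0239). Of the 33 genes, 19 (57.6%) did not overlap higher with siRNA 9 against 3 higher with siRNA 7, and the median was -0.11. PARP9 at -0.65 (limma adjusted p = 0.0569), MX2 at -0.43 and IFI27 at -0.42 came next. The array means were -0.03, 0.06, -0.01 and 0.00 for negative siRNA, -0.07 and -0.11 for siRNA 7, and 0.11 and 0.06 for siRNA 9. These genes were dim, with a median level of 6.56 against 7.58 over all genes. The leukocyte, fibroblast and endothelial markers, also dim, had median differences of -0.09, -0.05 and -0.06. Of them 30.8%, 16.7% and 20% did not overlap higher with siRNA 9, and 7.69%, 8.33% and 0% higher with siRNA 7. Whether level had a part in the interferon counts was not tested. CCL24, a chemokine for eosinophils, read 6.53, 6.82, 6.73 and 6.98 on the negative arrays, 6.79 and 6.70 with siRNA 7, and 8.14 and 7.82 with siRNA 9. Only siRNA 9 stood apart, with a difference of -1.24 (SE 0.15, limma adjusted p = 0.00523), 2.37-fold higher. IL1A passed at -1.12, with negative array 2 at 6.03 beside siRNA 9 at 6.14 and 6.18. These were 2 calls among 28 genes of NF-kappaB targets and chemokines, whose median of -0.03 was that of all genes.

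**Figure D3:**
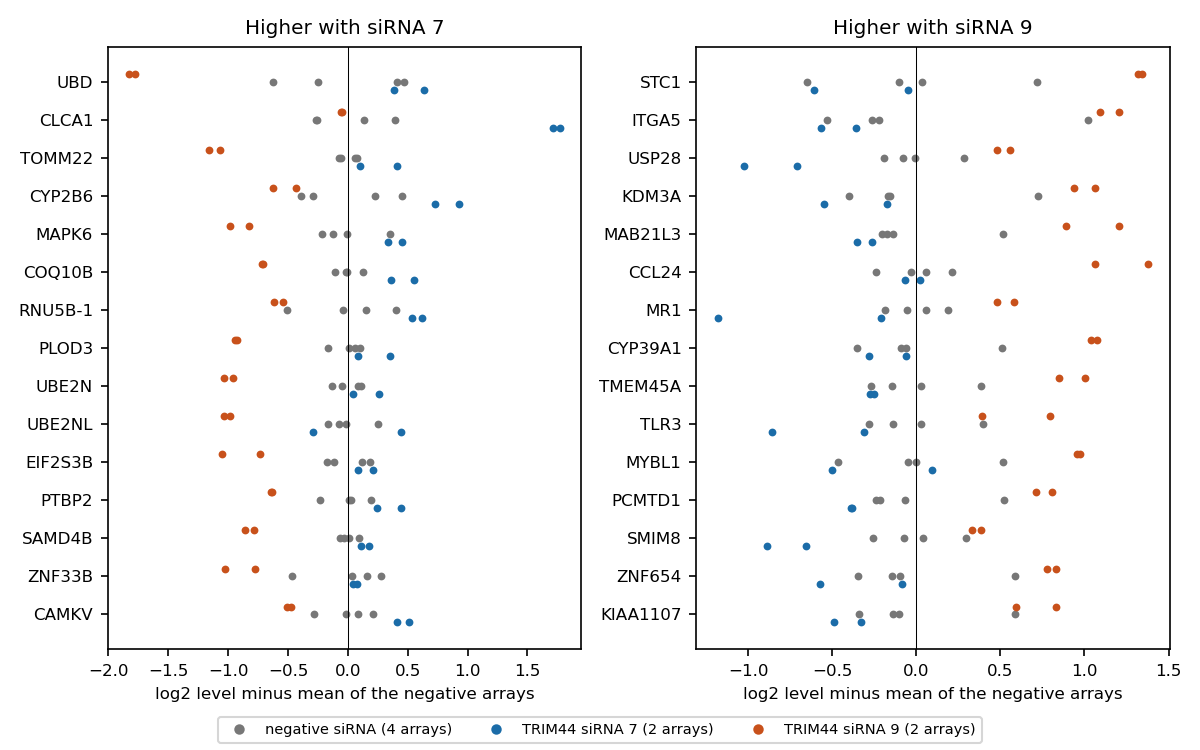
The 15 genes with the largest differences each way, each point 1 array's log2 level minus the mean of the negative arrays; grey is negative siRNA, blue siRNA 7 and orange siRNA 9. On the left the siRNA 9 points of most genes lie below the negative arrays, as for UBD, TOMM22 and UBE2N, while CLCA1 is set apart by siRNA 7; on the right negative array 2 is the grey point nearest to siRNA 9 for STC1, ITGA5 and KDM3A.

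Of 29 genes of small RNA machinery 2 passed, both higher with siRNA 9. DICER1, which cuts microRNA precursors, read 10.55, 10.84, 10.69 and 10.80 on the negative arrays, 10.06 and 10.21 with siRNA 7, and 10.66 and 10.70 with siRNA 9. It was low with siRNA 7 only, with a difference of -0.55 (SE 0.12, limma adjusted p = 0.04). AGO3, an Argonaute, read 8.50, 8.74, 8.62 and 8.55, then 8.25 and 8.54 with siRNA 7, and 8.94 and 9.03 with siRNA 9. It was high with siRNA 9, with a difference of -0.59 (SE 0.12, limma adjusted p = 0.0334). Over the 29 genes the median was -0.02, with 11 without overlap each way.

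Splicing regulators gave 1 call each way. PTBP2, a splicing repressor of the polypyrimidine tract family, passed at 0.98 (SE 0.14, limma adjusted p = 0.0092), with 8.87 and 8.88 on the siRNA 9 arrays below all others. MBNL3, a muscleblind splicing factor, read 8.64, 8.60, 8.83 and 8.51 on the negative arrays, 8.0002 and 7.65 with siRNA 7, and 8.64 and 8.58 with siRNA 9. It was set apart by siRNA 7, with a difference of -0.79 (SE 0.14, limma adjusted p = 0.0179). RNU5B-1, a gene of the U5 spliceosomal RNA, differed by 1.15 (limma adjusted p = 0.0224) at low levels of 5.16 to 6.39.

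Among 62 chromatin modifiers 2 genes passed each way. HDAC3, the deacetylase of nuclear receptor corepressor complexes, read 10.86, 10.84, 11.001 and 11.004 on the negative arrays, 10.87 and 11.04 with siRNA 7, and 10.13 and 10.17 with siRNA 9. It differed by 0.80 (SE 0.11, limma adjusted p = 0.0092), and KDM5B, a demethylase of histone H3 lysine 4, by 0.57. SMARCA2, a remodelling ATPase, was higher with siRNA 9 at -0.56, as was KDM3A above. The list had 26 genes without overlap higher with siRNA 9 (41.9%) against 12. The median was -0.06, and was -0.04 without siRNA 7 array 1, -0.01 and -0.12 without siRNA 9 array 1 and 2. POLR2F, a subunit shared by the RNA polymerases, passed at 0.55 and MED13, of the Mediator kinase module, at -0.46.

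Of 38 genes of integrins, laminins and collagen enzymes 1 passed higher with siRNA 7 and 2 higher with siRNA 9. ITGA5, the fibronectin receptor subunit, had log2 levels of 8.47, 10.02, 8.74 and 8.78 on the negative arrays, 8.64 and 8.43 with siRNA 7, and 10.21 and 10.09 with siRNA 9. Negative array 2 again lay beside siRNA 9, and the other negative arrays beside siRNA 7. The difference was -1.61 (SE 0.37, limma adjusted p = 0.0462), 3.06-fold higher with siRNA 9. OLFML2B, an extracellular olfactomedin-like protein, read 5.89 to 6.50 on the negative arrays, 6.25 and 6.40 with siRNA 7, and 7.60 and 7.28 with siRNA 9, a difference of -1.12 (SE 0.18, limma adjusted p = 0.0142). PLOD3, a lysyl hydroxylase of collagen, went the other way. It read 10.81, 10.58, 10.76 and 10.85, then 10.83 and 11.10 with siRNA 7, and 9.82 and 9.80 with siRNA 9, and differed by 1.15 (SE 0.12, limma adjusted p = 0.00264). Of the 38 genes, 18 did not overlap higher with siRNA 9 (47.4%) against 5. The median was -0.11, and was -0.19 and -0.05 without siRNA 7 array 1 and 2. None of 25 genes of cadherins, catenins and the mesenchymal switch passed. Of these 8 did not overlap higher with siRNA 7 (32%) and 7 higher with siRNA 9 (28%), with a median of 0.04. The desmosomal plakophilins PKP2 and PKP1 passed at -0.55 and -0.54, and CLDN12, a claudin, at 0.50. In the list of 22 keratins and desmosomes, 8 genes did not overlap higher with siRNA 9 and 0 higher with siRNA 7.

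Secretory and cytoskeletal genes gave scattered calls. Higher with siRNA 7 were COPZ1 of the COPI coat at 0.66 (limma adjusted p = 0.0127), SEC16A, which organises exit sites of the endoplasmic reticulum, at 0.50, GOSR1, a Golgi SNARE, at 0.50, and RAB2A at 0.50. The medians of the coat and SNARE list and of the vesicle GTPase list were 0.01 and 0.08, the second 0.03 without siRNA 7 array 2 or siRNA 9 array 1. MAPRE1, which tracks growing microtubule ends, passed at 0.68, and CAMSAP2, which guards minus ends, at -1.04. CAMSAP2 read 7.76, 8.52, 7.97 and 8.05 on the negative arrays, 7.89 and 8.30 with siRNA 7, and 9.17 and 9.12 with siRNA 9, so that siRNA 9 alone stood apart. MYH10, a nonmuscle myosin, passed at -0.56. ATP6V1A of the proton pump and NPC1, the lysosomal cholesterol exporter, were higher with siRNA 9 at -0.60 and -0.56, and ATG16L1, an autophagy factor, with siRNA 7 at 0.59.

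Goblet cell genes contributed CLCA1, a secreted regulator of mucus and chloride currents. It read 7.13, 7.79, 7.53 and 7.13 on the negative arrays, 9.16 and 9.10 with siRNA 7, and 7.34 and 7.35 with siRNA 9. Here siRNA 7 alone stood apart, more than a log2 unit above every other array. The difference was 1.79 (SE 0.19, limma adjusted p = 0.00264), 3.46-fold higher with siRNA 7, and the rise against negative siRNA was 1.74 (limma adjusted p = 0.00429). That rise did not pass with all probe sets tested (0.189) or with the replicate block (0.0664), and had 0.000115 as its lowest adjusted p in limma over 15 alternatives. B3GNT6, a mucin-type glycan synthase, passed at 0.80, with siRNA 7 arrays at 11.43 and 10.95. Of 36 mucin and goblet cell genes, these 2 passed. The arrays did not overlap in 14 of the 36 higher with siRNA 7 (38.9%) and 6 higher with siRNA 9 (16.7%). The median of 0.03 turned to -0.03 without siRNA 9 array 2. It kept its sign under both other scalings and without any other TRIM44 siRNA array.

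Calls in the lipid and drug metabolism lists went both ways. Of 21 cholesterol synthesis genes 1 passed (4.76%), and of 26 genes of fatty acid and glycerolipid synthesis 1 (3.85%). Of 32 genes of fatty acid oxidation and peroxisome 2 passed (6.25%), and of 36 cytochrome P450 and xenobiotic genes 3 (8.33%), against 2.25% of all genes. SREBF2, the transcription factor of cholesterol synthesis, passed at 0.70 (SE 0.13, limma adjusted p = 0.02), with 10.19 and 10.14 on the siRNA 9 arrays below all others. The 21 cholesterol synthesis genes around it had a median of -0.13, which was -0.03 and -0.23 without siRNA 7 array 1 and 2 and -0.09 without siRNA 9 array 1. There were 8 without overlap higher with siRNA 9 and only 1, SREBF2 itself, higher with siRNA 7. ELOVL1, which elongates very long chain fatty acids, passed at 0.68, while 14 of 26 genes of fatty acid and glycerolipid synthesis did not overlap higher with siRNA 9 (53.8%) against 7. PEX19, the chaperone of peroxisomal membrane proteins, differed by 0.82 (limma adjusted p = 0.0092), and EHHADH, a peroxisomal oxidation enzyme, by -0.52. Among cytochromes P450, CYP2B6 passed at 1.36 (limma adjusted p = 0.0175), and CYP39A1, an oxysterol hydroxylase, at -1.23 (0.0175 by the same test). Both were dim, at 5.73 to 7.29 and 5.80 to 7.23 over the 8 arrays, against a median of 7.58 over all genes. CYP2U1 passed at -0.65.

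None of 25 apoptosis regulators passed, 13 did not overlap higher with siRNA 9 (52%) against 4, and the median was -0.16. BCL2L11, a BH3-only killer protein, differed by -0.37, APAF1 of the apoptosome by -0.76, BNIP3L by -0.36 and BCL2 by -0.32, none past the threshold. TNFRSF10B, a TRAIL receptor counted here with the p53 targets, passed at 0.54. Of those 25 p53 targets 1 passed, and 7 did not overlap higher with siRNA 7 (28%) against 5 higher with siRNA 9 (20%). Wnt targets had 8 of 24 genes without overlap higher with siRNA 9 against 1, with a median of -0.08 and 0 calls. That median was -0.17 without siRNA 7 array 2 and -0.04 without siRNA 9 array 1. PROX1 differed by -0.51, NKD1 by -0.44, SOX9 by -0.36 and AXIN2 by -0.34. Of 25 TGF-beta and BMP genes, ID2 passed at 0.56 and ACVR1, a BMP receptor, at -0.61, and 8 did not overlap higher with siRNA 7 (32%) against 7 higher with siRNA 9 (28%). PPP1R3C, a glycogen-targeting phosphatase subunit, passed at -0.61.

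The remaining genes of largest difference stand in no list. Higher with siRNA 7 were EIF2S3B at 1.04, SAMD4B, an RNA-binding repressor of translation, at 0.97, ZNF33B at 0.96 and CAMKV at 0.95. EIF2S3B is a near copy of EIF2S3, which differed by 0.30 without passing, and ZNF33B has the paralog ZNF33A, which passed at 0.76, so signal may be shared within each pair. Higher with siRNA 9 were MAB21L3 at -1.36, TMEM45A at -1.19, MYBL1, a MYB family transcription factor, at -1.17, PCMTD1 at -1.14, SMIM8 and ZNF654 at -1.13, and KIAA1107, the name given by the probe annotation, at -1.12. SMIM8 is an example of displacement by both reagents, with 7.84 to 8.40 on the negative arrays, 7.44 and 7.21 with siRNA 7, and 8.43 and 8.49 with siRNA 9.

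In all, 66 of 1777 measured genes of the 54 function lists passed (3.71%, against 2.25% of all genes), in 35 of the lists, and 349 of the 415 called genes belong to none. The lists were chosen with earlier results of these data known and were not matched for level, so setting these shares side by side tests nothing. Lists without a call included ribosomal proteins, the mitochondrial ribosome, the respiratory chain, the unfolded protein response, heat shock chaperones, NRF2 targets, metallothioneins, ERK feedback genes and the neighbours of TRIM44 on 11p13. Of the 415 called genes, 17 have other probe sets. Of these 18 probe sets, 15 differed in the same direction, 2 of them past the threshold, and none passed in the opposite direction.

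**Figure D4:**
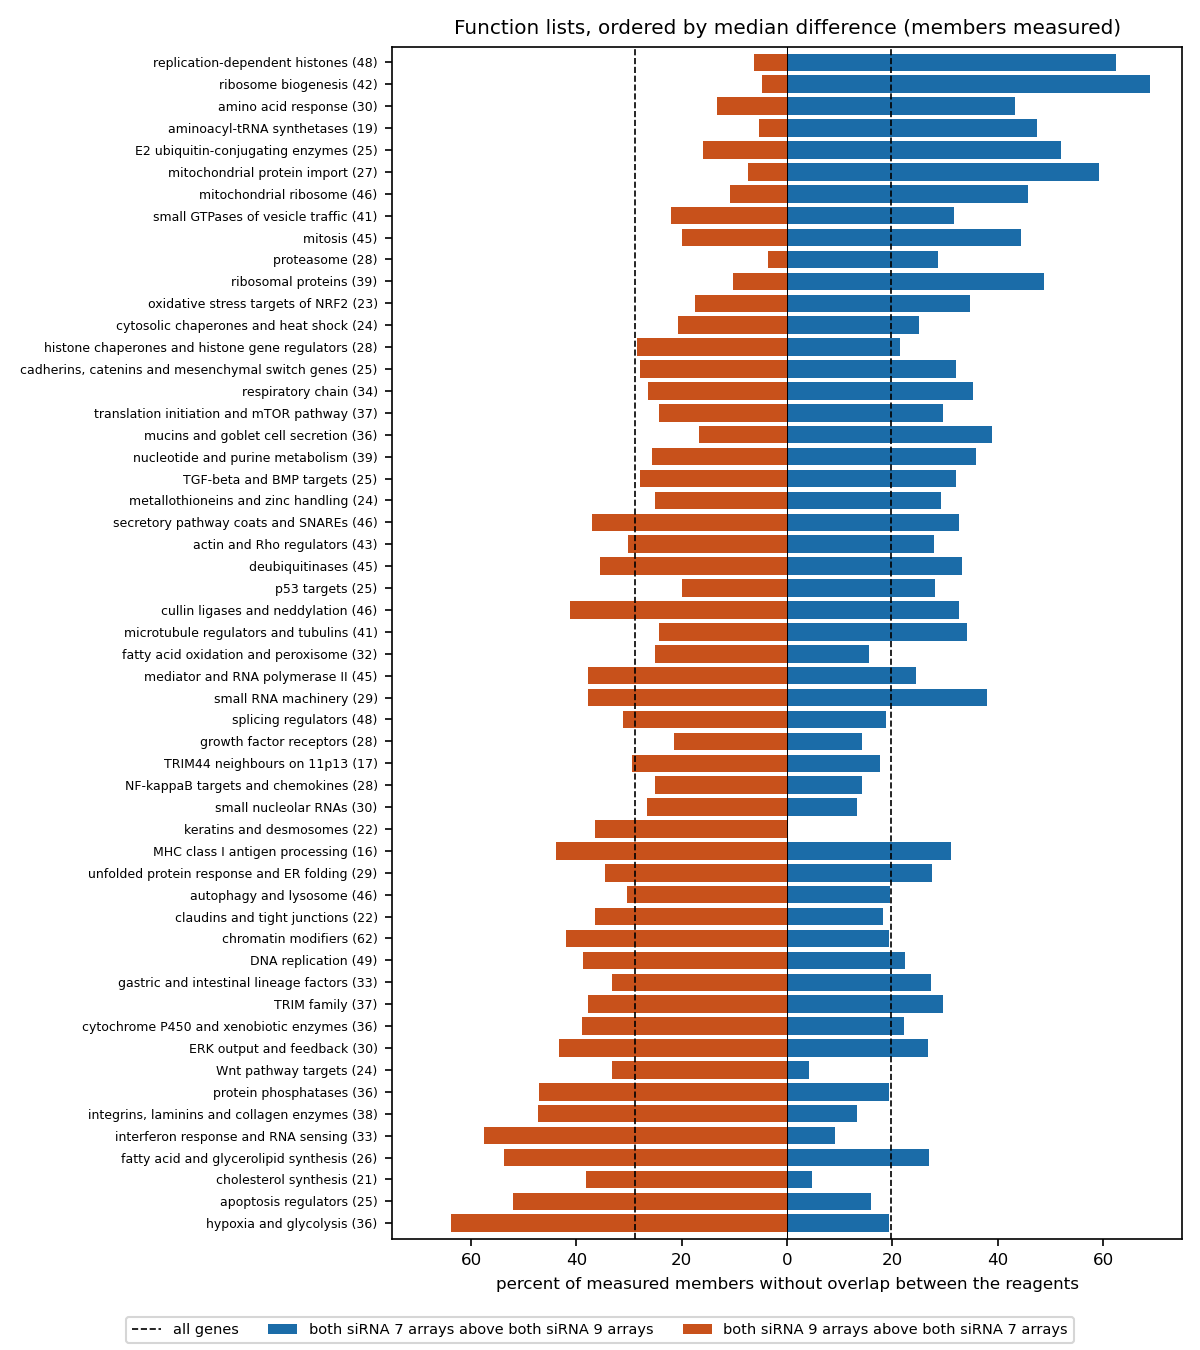
For each of 54 function lists (members measured in brackets), the bar to the right is the percent of members with both siRNA 7 arrays above both siRNA 9 arrays and the bar to the left the percent the other way; lists are ordered by median difference. Dashed lines mark all 18404 genes (19.8% and 28.9%), which ribosome biogenesis (69%) and histones (62.5%) pass on the right and hypoxia and glycolysis (63.9%) and the interferon response (57.6%) on the left.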

How the data were processed

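RNA of HSC39 cells was hybridised to 8 Affymetrix Human Gene 1.0 ST arrays. The deposited values are log2 levels, 1 for each of 32321 probe sets on each array, and limma was used, per the submitters' processing notes; how they were normalized or filtered, and the genome build, is not given in the sources used here. Values of equal rank differed by at most 0.18 between arrays, so the deposited log2 values had been brought close to a common distribution. No background signal is given, so a low level may stand for an absent transcript, and precision is limited by the number of arrays.

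Groups followed the sample labels. Probe sets with exactly 1 symbol (19158, of 18404 genes; 19128 matched by gene ID to a RefSeq table of GRCh38.p14) were fitted with 3 group means in limma 3.58.1 (R 4.3.3), with no filter, moderated 2-sided tests and Benjamini-Hochberg adjustment over the 19158 at 0.05. The 1388 probe sets with several symbols and the 11775 with none were left out. For the 637 genes with several probe sets, that of highest mean stood for the gene. The fit was tested on simulated data. Members of 54 function lists (1777 of 1947 genes measured) were counted, with no set test. Named were TRIM44, the 15 largest differences each way past the threshold without overlap, every called list member, and the 4 members of smallest p in 10 lists described. The members and lists were chosen with earlier results of these data known. Promoters came from RefSeq. Alternatives were 2 scalings, 2 sets of probe sets, a trended robust prior, array weights, 4 arrays only, a replicate block, and leaving out each array.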

Additional observations from a re-analysis of the deposited data

Results flagged for a closer look

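Among the 116 named genes, 3 had a negative array far from the other 3, where chance alone flags about 1 in 20. MAB21L3, higher with siRNA 9, had a log2 level of 6.08 on negative array 2 against 5.36 to 5.43 on the others. RRP12, of ribosome biogenesis, read 9.76 on negative array 2 against 9.91 to 9.93. BCL2L11, of the apoptosis list, read 8.26 on negative array 4 against 8.17 on the others.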

How the results depend on the processing

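With all arrays and the deposited scale, 428 probe sets differed between the reagents, 157 higher with siRNA 7 and 271 with siRNA 9. Against negative siRNA 13 differed for siRNA 7 and 177 for siRNA 9. Median centring gave 170 higher with siRNA 9, and 1 for siRNA 7 against negative siRNA. The upper 50% by level gave 703 (302 higher with siRNA 7), and 64 and 390 against negative siRNA. All probe sets tested gave 8 (8 and 0), and 0 and 28. A trended and robust prior gave 792 (326 and 466), and 83 and 405. Array weights gave 1063 (366 and 697), and 70 and 2082. Only the 4 TRIM44 siRNA arrays gave 807 (246 and 561). Quantile normalization gave 544 between the reagents (192 higher with siRNA 7 and 352 with siRNA 9). Leaving out 1 array gave 0 to 1050 between the reagents, 0 to 337 higher with siRNA 7 and 0 to 713 higher with siRNA 9. Against negative siRNA it gave 1 to 35 for siRNA 7 and 0 to 1067 for siRNA 9. The highest of these came without negative array 2 and the lowest between the reagents without either siRNA 9 array, where unadjusted p under 0.05 held for 1931 and 2003. The TRIM44 difference ran from -0.27 to 0.15 over these and turned only without siRNA 7 array 1. With the replicate number as a block, 450 differed between the reagents, and 0 and 44 against negative siRNA. Same-numbered arrays deviated together at r = 0.0244 for the reagents, 0.331 for negative and siRNA 7 and 0.127 for negative and siRNA 9. The numbers were not taken as pairs because the series text states no block. Whether arrays of the same number share an effect was not tested. Of the 83 named calls, 79 were kept under quantile normalization, 66 under centring, 5 with all probe sets tested, 76 with the trended prior, 83 with array weights and 74 with the block, and none turned. The causes of these changes were not tested. With 2 arrays a reagent and no signal over background, small differences of dim genes are beyond these data.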

Other observations

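Among the 349 called genes in no list, the following were chosen after their values were seen. SLC40A1, the iron exporter ferroportin, read 8.27, 8.85, 8.42 and 8.45 on the negative arrays, 8.08 and 7.83 with siRNA 7, and 9.01 and 8.90 with siRNA 9, a difference of -0.999 (SE 0.17, limma adjusted p = 0.0153). CIAO2A, which helps to load iron-sulphur clusters, differed by -0.89, and GLRX5, a mitochondrial glutaredoxin of cluster assembly, by 0.78.

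MAP3K1, a kinase upstream of JNK, read 9.47, 9.73, 9.60 and 9.53 on the negative arrays, 9.06 and 9.32 with siRNA 7, and 10.23 and 10.21 with siRNA 9. The 3 groups did not overlap, and the difference was -1.03 (SE 0.12, limma adjusted p = 0.00495). NF2, the tumour suppressor merlin, was lower on both siRNA 9 arrays (9.09 and 9.07) than on all others, a difference of 0.81 (limma adjusted p = 0.00876), as was STK40 at 0.83. HILPDA, a lipid droplet protein, differed by -0.83 (limma adjusted p = 0.0485), with negative array 2 at 9.72 nearest to siRNA 9 at 10.10 and 9.98.

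When all 32321 probe sets were tested, 0 of 11775 without a symbol and 1 of 1388 with several symbols passed in limma, beside 7 of 19158 with 1 symbol, and 4236 of all had an unadjusted p under 0.05.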
